A study of Caenorhabditis elegans with 7 samples.

Results

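Superoxide dismutases, catalases and peroxiredoxins were followed in early embryos of the nematode Caenorhabditis elegans. The set was named gene by gene and not by measured values: sod-1 to sod-5, ctl-1 to ctl-3, prdx-2 and prdx-3, which are 10 of the 46748 genes in the count table. All 10 had enough reads to be tested, among 13035 tested genes. RNA was sequenced from pre-gastrulation embryos of 2 genotypes. There were 4 libraries of flp-21(ok889) mutants, numbered 11, 22, 29 and 30. Wildtype, named N2 in the sample titles, had 3 libraries, numbered 11, 22 and 30. The mutated gene, flp-21, codes for a neuropeptide of the FMRFamide-like family, and no treatment or other allele is named in the labels. Embryos were taken from mothers that carried few eggs, and the labels do not say whether libraries of a genotype came from separate cultures, so a p-value here speaks only of the spread between the samples at hand, which may be technical. Where values of single libraries are listed, they stand in the order of these numbers.

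Superoxide is a by-product of respiration and of oxidase enzymes. Superoxide dismutases turn it into hydrogen peroxide, which catalases and peroxiredoxins then break down, catalases directly and peroxiredoxins with electrons from the thioredoxin system. In C. elegans the enzymes are divided among compartments: SOD-1 and SOD-5 are copper/zinc enzymes of the cytosol, SOD-2 and SOD-3 manganese enzymes of mitochondria, and SOD-4 a copper/zinc enzyme of the cell surface and the space outside cells. CTL-2 is the catalase of peroxisomes, CTL-1 that of the cytosol, and PRDX-2 and PRDX-3 are the peroxiredoxins of cytosol and mitochondria. Before gastrulation most of an embryo's transcripts were supplied by the mother.

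Total counts ran from 34164612 to 53620276 per library, and 1 count was worth 0.0181 to 0.0377 CPM, the unit of all levels here (counts scaled to library depth by the TMM method, which matches libraries on the bulk of their genes). Counts of flp-21 were 2, 1, 5 and 9 over the mutant libraries and 24, 2 and 6 over the wildtype ones, too few to check the genotype labels. Markers of the maternal embryo had a summed level of 11307 to 14587 CPM for mutant embryos and 6880 to 14918 CPM for wildtype, and 0 of the 13 were without reads in either group. Early zygotic markers summed to 112 to 175 CPM over the mutant libraries and to 54.6, 4.25 and 153 CPM over the wildtype ones. Of these 13 genes 0 were called, and whether the libraries matched in stage was not tested. Marker lists of adult intestine, sperm, cuticle and body wall muscle separated the groups, while that of neurons did not. Of the intestine list 13 genes of 13 tested and of the sperm list all 32 fell in the mutant. The summed level of the intestine list was 1.31 to 1028 CPM over mutant libraries and 6278 to 53057 CPM over wildtype ones, and that of the sperm list 44.1 to 130.1 and 7646 to 14175 CPM. For cuticle genes the ranges were 1.73 to 561 and 2616 to 19011 CPM, and for body wall muscle genes 192 to 457 and 2033 to 6087 CPM. The neuron sums overlapped, at 218 to 372 CPM over mutant libraries and 123 to 351 CPM over wildtype ones. Of 10 neuron genes tested 3 fell, 1 rose and 6 were not called. Mutant libraries 22 and 29 resembled each other most. In bulk RNA, fewer cells of a type and less RNA per cell cannot be told apart. Whether the intestine, sperm, cuticle and muscle reads came from cells of the embryos at all was not tested.

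Of the 10 genes, 2 fell in the mutant embryos, the peroxisomal catalase gene ctl-2 and the extracellular superoxide dismutase gene sod-4. The other 8 did not pass the test and 0 rose (edgeR quasi-likelihood test, adjusted p threshold 0.05 over all tested genes; 0 were higher at an unadjusted p under 0.05, and DESeq2 called 2 lower and 0 higher). Across all tested genes 38.4% were called, 29.4% lower and 9.01% higher, so that 2 of 10 is near the background. The groups of libraries did not overlap for 3 genes, ctl-2, sod-4 and ctl-1, each lower in the mutant, and for all tested genes this share was 30.5% lower and 14.1% higher. The median log2 fold change of the 10 genes was -0.33, against -0.21 over all tested genes.

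**Figure D1:**
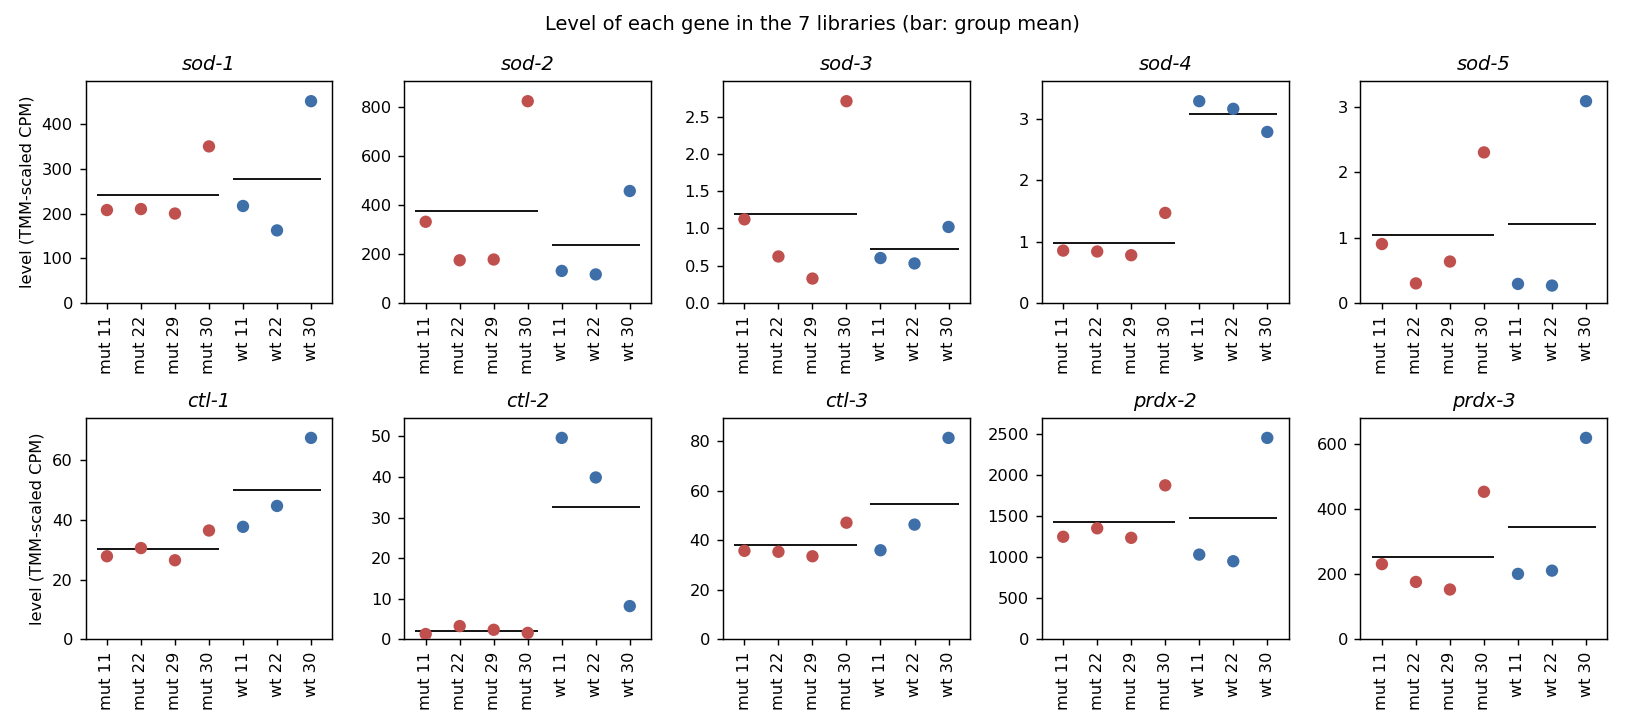
Level of each of the 10 genes in every library, as TMM-scaled CPM on a linear axis that starts at 0; red points are the 4 mutant libraries (mut), blue points the 3 wildtype libraries (wt), and bars the group means. The groups separate for sod-4, ctl-1 and ctl-2, and libraries 30 of both genotypes hold the highest value of their group for most genes.

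The 10 genes covered a wide range of levels. Per length, prdx-2 stood first in each of the 7 libraries, at 1635 ± 346 CPM per kilobase of exon (SD, n = 4) for the mutant and 1693 ± 966 (SD, n = 3) for wildtype. Next came prdx-3, sod-2 and sod-1, whose order changed from library to library: prdx-3 lay above sod-2 in 4 of the 7 libraries and sod-2 above sod-1 in 2. The level of prdx-3 was 329.7 ± 178 CPM per kilobase in the mutant and 447 ± 309.6 in wildtype.

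For sod-2 the per-length level was 432 ± 353 CPM per kilobase in the mutant and 269 ± 221 in wildtype, and for sod-1 331 ± 98.95 and 379 ± 210.3. All 3 were above every catalase gene in each library. Within the catalases, ctl-3 lay above ctl-1 in 6 of the 7 libraries and ctl-1 above ctl-2 in 6. The per-length levels were 24.1 ± 3.93 and 34.7 ± 15.1 CPM per kilobase for ctl-3 and 19.7 ± 2.86 and 32.4 ± 10.1 for ctl-1, in mutant and wildtype.

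At the lower end were ctl-2 in the mutant and sod-4, sod-5 and sod-3 in both genotypes. Per-length levels in the mutant were 1.32 ± 0.536 CPM per kilobase for ctl-2, 0.936 ± 0.309 for sod-4, 1.57 ± 1.34 for sod-5 and 1.43 ± 1.27 for sod-3. Their order was not settled among themselves, since sod-4 lay above sod-5 in 3 of the 7 libraries and sod-5 above sod-3 in 4. In wildtype ctl-2 was at 19.9 ± 13.2 CPM per kilobase, sod-4 at 2.93 ± 0.249, sod-5 at 1.85 ± 2.47 and sod-3 at 0.859 ± 0.317.

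The cytosolic enzyme gene sod-1 (WBGene00004930, chromosome II from 6972712 to 6973892 in build WBcel235, minus strand, protein coding, 4 to 5 exons) had much the same level in most libraries. Its level was 208, 210.2, 200.1 and 351 CPM over the mutant libraries and 217, 162 and 452 CPM over the wildtype ones. The groups overlapped, and library 30 was the highest in both. The log2 fold change of mutant over wildtype was -0.19 (SE 0.42, 95% interval -1.12 to 0.73, edgeR adjusted p = 0.754). Its sign turned with the scaling, being 0.09 with total counts alone.

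The second cytosolic gene, sod-5 (WBGene00007036, chromosome II from 4417683 to 4419131, plus strand, 5 exons), was barely transcribed in comparison. It is known from larvae in diapause and from insulin receptor mutants, where it is induced. It had 37, 11, 35 and 121 counts over the mutant libraries and 13, 9 and 82 counts over the wildtype ones. Both libraries numbered 30 stood above the rest of their group, and the groups overlapped. The log2 fold change was -0.21 with a wide interval from -2.44 to 2.02 (edgeR adjusted p = 0.889), and it was 2.02 without wildtype library 30 (edgeR adjusted p = 0.100).

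The main mitochondrial gene, sod-2 (WBGene00004931, chromosome I from 8434489 to 8435814, plus strand, 5 exons), varied most among the abundant members. Its level was 331, 173, 177 and 823 CPM over the mutant libraries and 130.03, 116 and 456 CPM over the wildtype ones. Within each genotype the highest library held several times the lowest, 4.74 times in the mutant and 3.94 times in wildtype. The groups overlapped, and the log2 fold change was 0.68 (SE 0.68, 95% interval -0.83 to 2.20, edgeR adjusted p = 0.465). Without mutant library 30 it was -0.0477, and without wildtype library 30 it was 1.74 (edgeR adjusted p = 0.0616). The neighbouring gene dpt-1 shares 28 of 870 exon bases with sod-2 on the other strand, and had a log2 fold change of 0.77 (edgeR adjusted p = 0.0820).

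The other mitochondrial gene, sod-3 (WBGene00004932, chromosome X from 17092718 to 17094223, plus strand, 5 exons), is widely used as a reporter of the FOXO factor DAF-16. Its level was 1.12, 0.622, 0.325 and 2.71 CPM over the mutant libraries and 0.601, 0.528 and 1.02 CPM over the wildtype ones. Mutant libraries 11 and 30 were above the wildtype range and mutant library 29 below it. On the log2 scale the difference was 0.74 (SE 0.78, 95% interval -0.999 to 2.49, edgeR adjusted p = 0.493), and -0.0552 without mutant library 30. In every library sod-2 was the far more abundant of the pair, with log2 ratios of sod-2 over sod-3 per length from 7.70 to 9.02. The genes that overlap sod-3 and sod-1 on the other strand, C08A9.3 and C15F1.13, had at most 5 and 1 counts in a library.

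The gene sod-4 (WBGene00004933, chromosome III from 9497011 to 9500204, minus strand, 6 to 7 exons in 4 transcripts) fell. It had 35, 31, 43 and 77 counts over the mutant libraries and 148, 108 and 74 counts over the wildtype ones. Scaled for depth these are 0.852, 0.838, 0.777 and 1.47 CPM against 3.29, 3.17 and 2.79 CPM. The groups did not overlap as CPM, and the wildtype libraries were close to each other, the highest being 1.18 times the lowest. The level was 3.13-fold lower in the mutant (log2 fold change -1.64, SE 0.52, 95% interval -2.80 to -0.49, edgeR adjusted p = 0.0303).

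The direction of sod-4 was the same in all 16 alternative analyses that kept the gene, but the call was not firm. It was lost without mutant library 11, 22 or 29 (edgeR adjusted p = 0.0986, 0.0969 and 0.103) and without wildtype library 11 or 22 (0.0756 and 0.0648), while the log2 fold change then lay between -1.48 and -1.58. The gene ctr-9, on the other strand, covers 310 of the 1051 exon bases of sod-4 and rose in the mutant (log2 fold change 1.67, edgeR adjusted p = 0.0375). Reads in the shared bases cannot be assigned without strand, and the part of this overlap in the sod-4 value was not tested. In the authors' deposited table sod-4 had a log2 fold change of -1.60 with an adjusted p of 0.00309.

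The catalase genes ctl-2, ctl-1 and ctl-3 stand in a row on the minus strand of chromosome II, within 11.2 kilobases. They are closely related copies, and reads that match more than one of them were not split with certainty, so the value of each copy is uncertain to that extent. The gaps between neighbours are 1561 and 1560 bases.

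The peroxisomal gene ctl-2 (WBGene00000831, 14299553 to 14302050, 4 exons) showed the largest difference of the 10 genes. It had 55 to 132 counts per mutant library and 218 to 2231 counts per wildtype library. As levels these are 1.34, 3.30, 2.38 and 1.62 CPM over the mutant libraries and 49.6, 39.9 and 8.22 CPM over the wildtype ones. Every mutant library was below every wildtype library, and wildtype library 30 was nearest to the mutant. The level was 15.1-fold lower in the mutant (log2 fold change -3.91, SE 0.65, 95% interval -5.37 to -2.46, edgeR adjusted p = 0.00151). In the authors' deposited table the log2 fold change was -3.92 with an adjusted p of 5.53e-08.

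The call of ctl-2 held with each single library left out, with log2 fold changes from -4.26 to -3.43. With wildtype library 30 as the only wildtype library the fold change was -1.72 (edgeR adjusted p = 0.0667), a test that holds no spread between wildtype libraries. The summed adult intestine markers followed ctl-2 in part. They were at 1.31, 1028, 943 and 11.02 CPM over the mutant libraries and at 48237, 53057 and 6278 CPM over the wildtype ones. In both lists of values wildtype library 30 was the lowest of wildtype and mutant libraries 22 and 29 the highest of the mutant. The pattern was not particular to the intestine list. The cuticle and body wall muscle sums had the library order of ctl-2 in each genotype, whereas the intestine sum was highest in wildtype library 22. The sperm and neuron sums were instead highest in library 30 of each genotype. The intestine marker ftn-1 had no read in any mutant library, and 95, 46 and 0 counts over the wildtype libraries. The part of these markers in the ctl-2 and sod-4 results was not tested. The gene Y54G11A.7, on the other strand, shares 291 of the 1637 exon bases of ctl-2 and had a log2 fold change of -0.08 (edgeR adjusted p = 0.884).

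**Figure D2:**
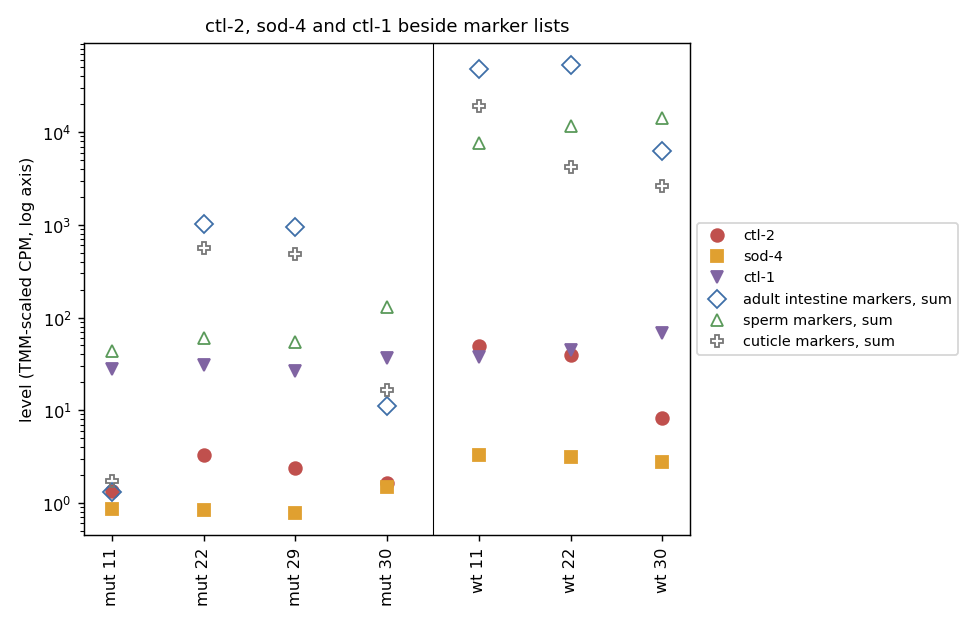
Levels of ctl-2, sod-4 and ctl-1 (filled symbols) and summed levels of adult intestine, sperm and cuticle markers (open symbols) in each library, as TMM-scaled CPM on a log axis; mut are mutant and wt wildtype libraries. In wildtype library 30 ctl-2 is at 8.22 CPM, the intestine markers at 6278 CPM and the cuticle markers at 2616 CPM, each the lowest of wildtype. The gene sod-4 stays near 3 CPM in each wildtype library.

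The cytosolic catalase gene ctl-1 (WBGene00000830, 14303612 to 14306293, 4 exons) lay lower in the mutant without passing the test. Its level was 27.9, 30.6, 26.5 and 36.5 CPM over the mutant libraries and 37.7, 44.7 and 67.5 CPM over the wildtype ones. The groups did not overlap, though mutant library 30 and wildtype library 11 nearly met. Its log2 fold change was -0.72 (SE 0.34, 95% interval -1.48 to 0.04, edgeR adjusted p = 0.125). Among genes with a mean of at least 5 CPM alone it passed (log2 fold change -0.92, edgeR adjusted p = 0.0447).

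The third copy, ctl-3 (WBGene00013220, 14307854 to 14310779, 4 to 5 exons), overlapped between the genotypes. Its level was 35.8, 35.4, 33.6 and 47.2 CPM over the mutant libraries and 36.04, 46.4 and 81.4 CPM over the wildtype ones. The mutant libraries other than 30 were nearly equal and wildtype library 30 was the highest. On the log2 scale the difference was -0.52 (SE 0.37, 95% interval -1.34 to 0.30, edgeR adjusted p = 0.297), and 0.01 without wildtype library 30.

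Taking the catalase genes as one pool, per length, the sum was 41.6, 44.4, 40.004 and 54.6 CPM per kilobase over the mutant libraries and 77.7, 82.8 and 101 over the wildtype ones. The sums did not overlap. Without ctl-2 they were 40.8, 42.3, 38.5 and 53.6 in the mutant and 47.3, 58.5 and 95.5 in wildtype, and then mutant library 30 lay above wildtype library 11. The share of ctl-2 in the pool was 1.97%, 4.54%, 3.64% and 1.81% in the mutant libraries and 39.04%, 29.4% and 4.996% in the wildtype libraries. Wildtype library 30 was therefore just above the mutant range in composition and well above it in amount.

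**Figure D3:**
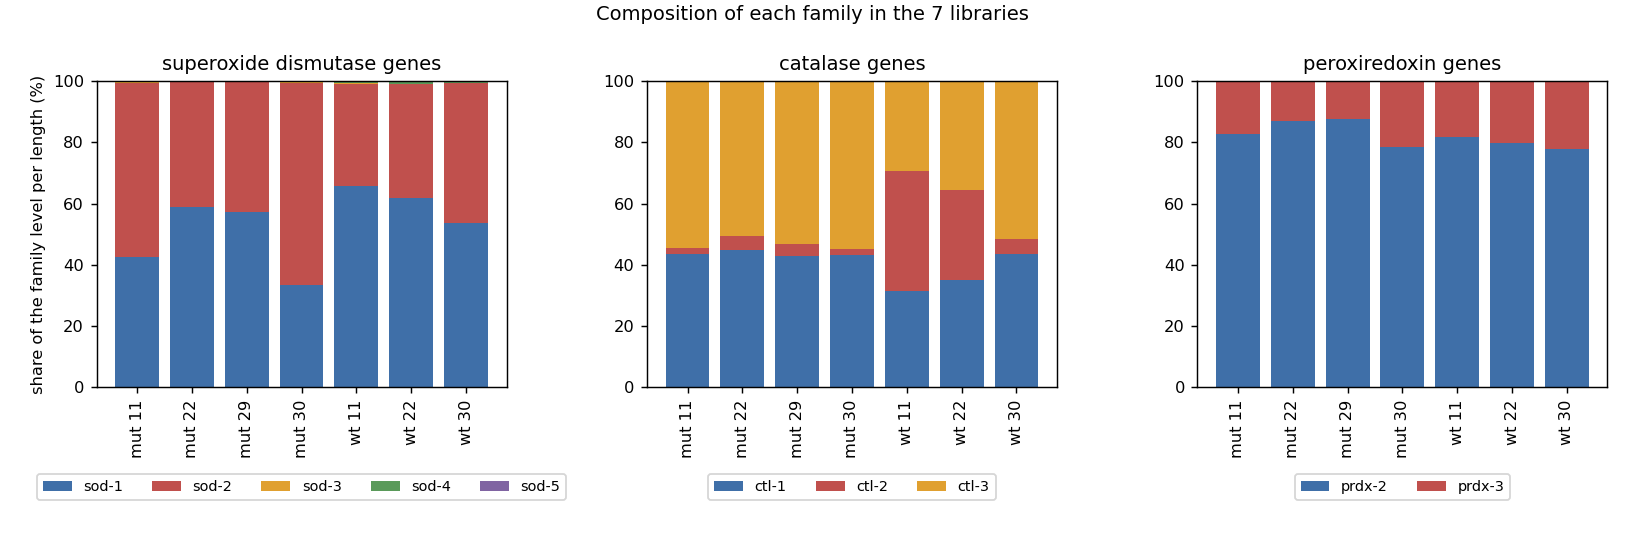
Share of each gene in the summed per-length level of its family, in percent, for the 4 mutant (mut) and 3 wildtype (wt) libraries; each bar adds up to the whole family. The ctl-2 share is 1.81% to 4.54% in the mutant and 4.996% to 39.04% in wildtype, and sod-3, sod-4 and sod-5 are barely visible in every library.

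The dismutase pool was almost wholly sod-1 and sod-2 in both genotypes. The sod-1 share of the summed per-length level was 48.0% ± 12.1 (SD, n = 4) for the mutant and 60.4% ± 6.20 (SD, n = 3) for wildtype, and that of sod-2 was 51.5% ± 12.1 and 38.6% ± 6.33. The share of sod-2 was above that of sod-1 in mutant libraries 11 and 30 and in no other library. For sod-4 the share was 0.134% ± 0.0304 in the mutant and 0.589% ± 0.318 in wildtype. The summed dismutase level was 478 to 1433 CPM per kilobase over the mutant libraries and 359 to 1151 over the wildtype libraries.

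Ratios between genes of a family do not depend on how libraries are scaled, and 14 such ratios were compared. For 5 of them the genotypes did not overlap, and each of the 5 involved sod-4 or ctl-2. The log2 ratio of ctl-2 over ctl-3 per length was -4.27 ± 0.702 (SD, n = 4) for the mutant and -1.08 ± 2.01 (SD, n = 3) for wildtype, with a two-sided exact permutation p of 0.0571. The log2 ratio of sod-1 over sod-4 was 8.47 ± 0.0473 in the mutant and 6.88 ± 0.873 in wildtype (two-sided exact permutation p = 0.0571). Adjusted by Benjamini-Hochberg over the 14 ratios all 5 became 0.16. With 7 libraries this two-sided test cannot give a p below 0.0571, even for groups that separate fully. No ratio could therefore have passed the threshold, and these p-values decide nothing. Between ctl-1 and ctl-3 the log2 ratio was -0.29 ± 0.0745 in the mutant and -0.06 ± 0.171 in wildtype, and the groups overlapped.

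The cytosolic peroxiredoxin gene prdx-2 (WBGene00006434, chromosome II from 5378063 to 5379636, plus strand, 2 to 3 exons in 3 transcripts) was the most abundant of the 10. Its level was 1252, 1355, 1239 and 1879 CPM over the mutant libraries and 1034, 954 and 2457 CPM over the wildtype ones. Wildtype held both the lowest and the highest value, so that the mutant range lay inside that of wildtype. The log2 fold change was -0.05 (SE 0.41, 95% interval -0.98 to 0.88, edgeR adjusted p = 0.938), and it was 0.65 without wildtype library 30 (edgeR adjusted p = 0.0543).

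The mitochondrial peroxiredoxin gene prdx-3 (WBGene00011110, chromosome III from 4407444 to 4408437, plus strand, 3 exons) was less abundant and more variable. Its level was 232, 177, 154 and 454 CPM over the mutant libraries and 201, 211 and 619 CPM over the wildtype ones. Here too library 30 was the highest of each genotype, and the groups overlapped. Its log2 fold change was -0.44 (SE 0.52, 95% interval -1.60 to 0.73, edgeR adjusted p = 0.548), and 0.42 without wildtype library 30. The share of prdx-3 in the summed per-length level of the peroxiredoxins was 16.04% ± 4.30 in the mutant and 20.2% ± 2.07 in wildtype.

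**Figure D4:**
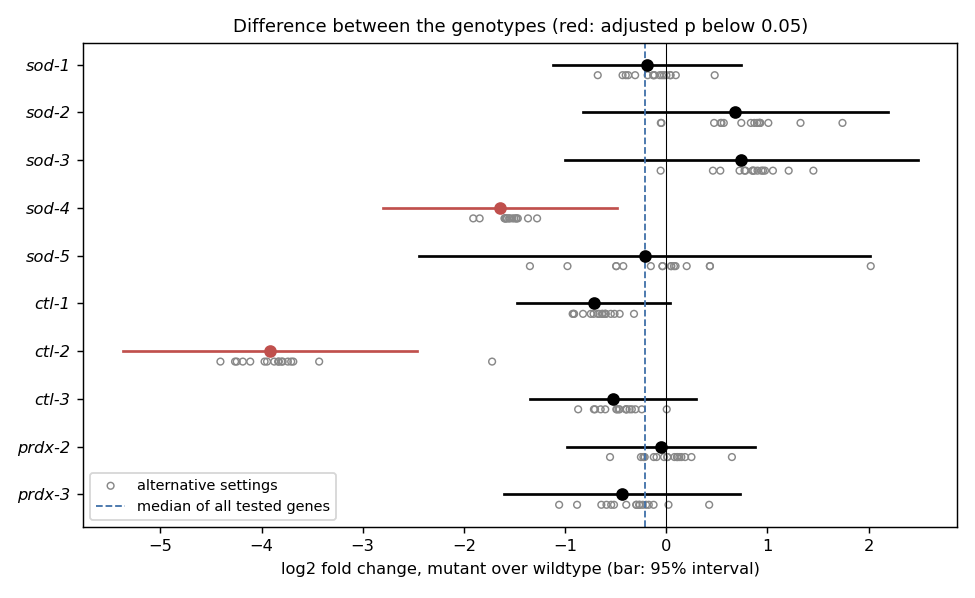
Log2 fold change of mutant over wildtype for each of the 10 genes (filled points) with its 95% interval (bars), and the values under the alternative analyses (open points); red marks genes past the adjusted p threshold and the dashed line the median of all tested genes. Only the intervals of ctl-2 and sod-4 lie wholly below 0. The alternatives of ctl-2, sod-4 and ctl-1 all lie below 0. Those of every other gene fall on both sides of it, with the most sign changes for prdx-2, sod-5 and sod-1.

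Differences between libraries of a genotype ran through most of the set. In the mutant, 9 of the 10 genes were highest in library 30, against 41.1% of all tested genes, and in wildtype 8 of 10 were highest in library 30, against 36.8%. The exception in the mutant was ctl-2, which was highest in library 22, and the exceptions in wildtype were ctl-2 and sod-4. Ribosomal RNA took 13.3% of the counts of wildtype library 30 and 2.40% to 6.48% of those of the other libraries, and the TMM factor of wildtype library 30 was 0.732 against 0.979 to 1.202. The part of these differences in the levels above was not tested.

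Among themselves the genes formed close and distant pairs. Likeness was measured as the root mean square difference of log2 CPM over the 7 libraries, each gene centred on its own mean, and is a description only. The closest pairs were sod-1 and prdx-2, the abundant cytosolic genes, at 0.138, and ctl-1 and ctl-3 at 0.155. The mitochondrial pair sod-2 and sod-3 differed by 0.448. Outside the set, the genes with the most similar profiles at a mean of at least 5 CPM were crt-1 and osta-3 for prdx-2 (0.0895 and 0.101), fat-1 and atp-4 for sod-1 (0.101 and 0.112), cyn-12 and snr-6 for sod-2 (0.101 and 0.109) and B0304.2 and ndub-5 for prdx-3 (0.0970 and 0.0999). For the catalases they were praf-3 and memi-3 for ctl-1 (0.108 and 0.109), R11H6.2 and eef-1A.1 for ctl-3 (0.0928 and 0.1095) and ipla-7 and acs-22 for ctl-2 (0.312 for both). For the least abundant dismutase genes they were phb-1 and elo-1 for sod-4 (0.154 and 0.175), tag-280 and D2089.3 for sod-3 (0.208 and 0.216) and icmt-1 and C31G12.1 for sod-5 (0.349 and 0.403).

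Genes that supply, feed or regulate these enzymes were taken from 7 further lists of 79 genes in all, 71 of them tested. The lists were chosen with earlier results of these data known, so counts within them are a description only. Of the 71 tested genes 13 rose and 16 fell in the mutant, and the median log2 fold change was 0.04. The share called lower is below the 29.4% of all tested genes and the share called higher above the 9.01%, and no test of that difference was made. Without mutant libraries 22 and 29, 3 rose and 13 fell, and with wildtype library 30 as the only wildtype library 11 rose and 7 fell.

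The thioredoxin system, which gives electrons to peroxiredoxins, had 0 of 7 tested genes past the threshold in either direction in edgeR (1 of the 7 at an unadjusted p under 0.05, prdx-6). The thioredoxin reductase gene trxr-1 was at 141 ± 31.5 CPM (SD, n = 4) for the mutant and 90.2 ± 19.4 CPM (SD, n = 3) for wildtype (edgeR adjusted p = 0.147). The peroxiredoxin gene prdx-6 was at 28.5 ± 19.97 and 64.7 ± 30.1 CPM (edgeR adjusted p = 0.107), while a thioredoxin gene, trx-4, was at 148 ± 127 and 64.4 ± 45.6 CPM (edgeR adjusted p = 0.201). The list median was 0.32, and over all tested genes 38.4% were called.

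In the glutathione system 1 of 13 tested genes rose, 1 fell and 11 did not pass (median 0.20). Both counts are below the shares over all tested genes, 9.01% higher and 29.4% lower. The glutaredoxin gene glrx-22 rose from 32.7 ± 5.31 to 103 ± 60.2 CPM (log2 fold change 1.65, edgeR adjusted p = 0.0240). The glutathione peroxidase gene gpx-5 fell from 6.51 ± 6.71 to 0.198 ± 0.118 CPM (log2 fold change -5.03, edgeR adjusted p = 0.00207). The glutaredoxin gene glrx-3 was at 65.9 ± 23.02 CPM in mutant embryos and 118 ± 32.4 CPM in wildtype ones (edgeR adjusted p = 0.0927).

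In the list for NADPH, the reductant behind both systems, 4 of 6 tested genes fell and 0 rose (median -1.49). Over all tested genes 29.4% fell and 9.01% rose. The NADP isocitrate dehydrogenase gene idh-1 fell from 452 ± 49.2 to 137 ± 13.7 CPM (edgeR adjusted p = 0.00148). So did the transaldolase gene tald-1, from 176 ± 56.97 to 41.9 ± 6.72 CPM, and the transketolase gene tkt-1, from 737 ± 106 to 308 ± 30.96 CPM (edgeR adjusted p = 0.00138 and 0.00772). These last enzymes rearrange sugars in the pentose phosphate pathway and do not themselves make NADPH. The enzyme that does so first in that pathway, encoded by gspd-1, was at 35.7 ± 2.49 CPM in mutant embryos and 41.3 ± 16.3 CPM in wildtype ones (edgeR adjusted p = 0.687).

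Metal storage genes were lower in 4 of 5 tested cases and higher in 0 (median -4.87), against 29.4% and 9.01% of all tested genes. The ferritin gene ftn-2 fell from 171 ± 68.5 to 5.84 ± 1.55 CPM (log2 fold change -4.87, edgeR adjusted p = 1.09e-04). The metallothionein genes mtl-2 and mtl-1 fell from 10.8 ± 4.53 to 0.0862 ± 0.0794 CPM and from 3.02 ± 2.74 to 0.0287 ± 0.0427 CPM. The gene mtl-2 is also one of the adult intestine markers, whose summed level is lower in the mutant as given above.

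Peroxide producers were lower in 4 of 7 tested cases and higher in 0 (median -4.26), against 29.4% and 9.01% of all tested genes. The 4 were all acyl-CoA oxidase genes, whose enzymes start the breakdown of fatty acids in peroxisomes and release hydrogen peroxide there. The gene acox-1.1 fell from 18.5 ± 13.7 to 0.503 ± 0.3995 CPM, acox-1.3 from 5.20 ± 3.93 to 0.108 ± 0.0832 CPM and acox-1.4 from 20.8 ± 15.3 to 0.293 ± 0.342 CPM (edgeR adjusted p = 0.00226, 0.00366 and 0.00782). Like ctl-2, acox-1.1 was lowest of wildtype in library 30, at 3.81 CPM, and highest of the mutant in libraries 22 and 29, at 0.784 and 0.903 CPM.

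Genes of peroxisome assembly, called peroxins, went both ways. Of 11 tested, 2 fell, 1 rose and 8 did not pass (median -0.36). These counts are near or below the shares over all tested genes, 29.4% lower and 9.01% higher. The gene prx-13 fell from 3.79 ± 0.844 to 0.663 ± 0.134 CPM and prx-11 from 3.07 ± 1.65 to 0.485 ± 0.308 CPM (edgeR adjusted p = 0.00418 and 0.0178). By contrast, prx-19 rose from 73.7 ± 15.0 to 156 ± 21.3 CPM (edgeR adjusted p = 0.01996).

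Regulators of the stress response were higher in 11 of 22 tested cases and lower in 1 (median 1.11). Over all tested genes 9.01% were higher and 29.4% lower. The insulin receptor gene daf-2 and the phosphoinositide kinase gene age-1, which together restrain DAF-16, rose, age-1 from 60.3 ± 13.7 to 210 ± 62.6 CPM (edgeR adjusted p = 0.00119 for daf-2 and 0.00427 for age-1). The gene skn-1, which encodes a factor for both early embryonic fate and the oxidative stress response, rose from 231 ± 32.6 to 495 ± 146 CPM (log2 fold change 1.102, edgeR adjusted p = 0.0323). The gene daf-16 itself was at 136 ± 43.6 CPM in mutant embryos and 95.02 ± 42.7 CPM in wildtype ones and did not pass (log2 fold change 0.52, edgeR adjusted p = 0.348).

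The gene that fell was pqm-1, which encodes a zinc finger factor, from 5.08 ± 3.495 to 0.0417 ± 0.0298 CPM (log2 fold change -6.90, edgeR adjusted p = 4.94e-04). It had 2, 3, 1 and 1 counts over the mutant libraries. Over the wildtype libraries it was at 8.61, 5.02 and 1.62 CPM, the same order as for ctl-2. Among the 10 enzymes, sod-3, known as a target of DAF-16, did not pass, as given above.

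**Figure D5:**
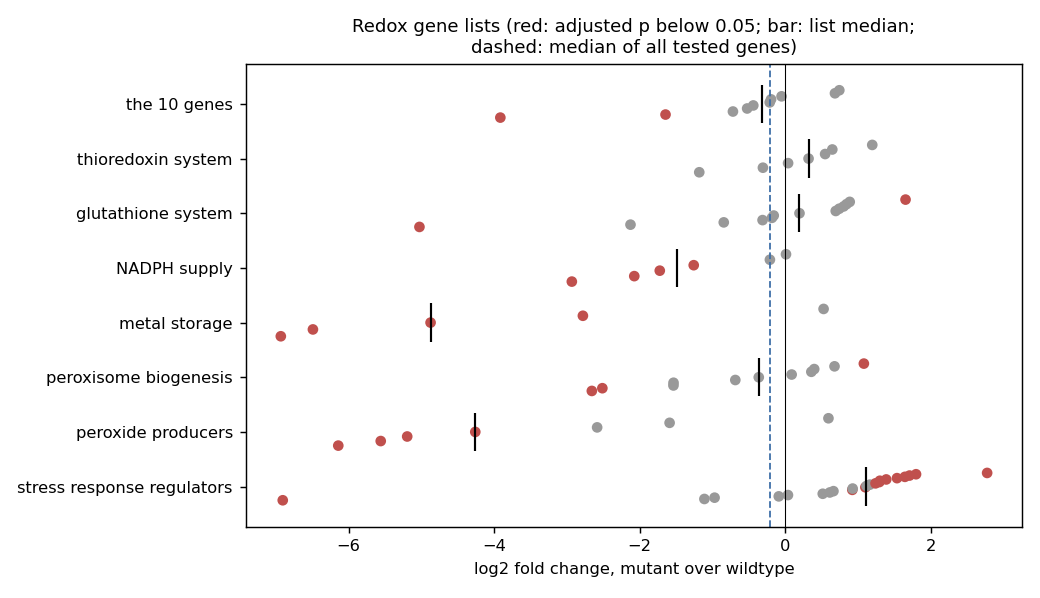
Log2 fold change of mutant over wildtype for each tested gene of the 10 enzymes and of 7 further lists; red points are past the adjusted p threshold, bars are list medians and the dashed line is the median of all tested genes. Metal storage genes and peroxide producers have medians of -4.87 and -4.26, and the stress response regulators one of 1.11.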

How the data were processed

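The authors deposited raw counts of reads per gene for 7 libraries. Per the file headers they were made with featureCounts 1.6.4 from trimmed alignments, by exon and gene identifier, with no option for strand or multiply mapped reads, and the submitters' processing notes name BWA, DESeq2 and build WBcel235. Lengths, as other values, are summed exon bases deposited by the authors. Their deposited DESeq2 comparison holds 3791 genes with log2 fold changes, p-values and adjusted p-values, a Wald score and a mean signal of size-factor scaled counts, and lists only genes past thresholds. BWA does not split reads at introns, so junction reads can go uncounted.

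Symbols were matched by gene identifier for 43693 of 46748 genes, and all 207 listed symbols had a count row. Counts were tested with edgeR 4.0.16 in R 4.3.3 (quasi-likelihood F-test, robust, TMM, filterByExpr, genotype as the only term, Benjamini-Hochberg over 13035 genes). Standard errors are the fold change over the root of F. The fit was tested on simulated data. Levels are TMM-scaled CPM. Log2 CPM used a prior count of 2. The scale has a median log2 fold change of -0.21, against 0.01 with total counts alone and -0.42 with upper quartile scaling, where 67.5% and 84.5% of called genes were lower, against 76.5%.

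The genes and lists were chosen with earlier results of these data known. Named genes are the 10 enzymes, daf-2, daf-16, skn-1, up to 3 genes per list with the smallest p at a mean of at least 1 CPM, and the 2 nearest profiles of each enzyme; other genes were named after their values were seen. Alternatives changed scaling, filter, tool, block and libraries, with DESeq2 1.42.0 as the other tool. No 2 libraries agreed within sampling noise (chi-square per degree of freedom of at least 22.9). Sequences of the genes were not used here.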

Additional observations from a re-analysis of the deposited data

Results flagged for a closer look

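In the mutant, the highest library stood apart from the other 3 for 3 of the 10 genes, each time library 30. The sod-1 level was 351 CPM there, with a gap to the next library of 0.933 of the whole range. For sod-4 it was 1.47 CPM, with a gap of 0.891, and for ctl-3 it was 47.2 CPM, with a gap of 0.838. These gaps are above the 95% critical value of Dixon's test for 4 samples, which chance alone passes in about 1 of 20 groups. The 10 genes share the same 4 libraries, so they are not separate trials. Library 30 was the highest mutant library for 41.1% of all tested genes. The share of those genes with such a gap was not counted, so 3 of 10 is not a result about this set. Wildtype, with 3 libraries, was not examined in this way.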

How the results depend on the processing

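Of 167 log2 fold changes of the 10 genes under 17 alternatives, 126 stayed on the same side of the threshold with the same direction, 11 lost a call (10 of sod-4, 1 of ctl-2), 1 gained one (ctl-1, under the filter of 5 CPM) and 29 turned sign, 0 of the last past the threshold in edgeR or DESeq2. Enzyme genes higher in the mutant numbered 0 throughout. The number lower was 1 with total counts alone, with no filter beyond 1 count and without mutant libraries 22 and 29, 0 without wildtype libraries 11 and 22, and 1 to 2 with single libraries left out, where sod-4 accounted for the loss. With the filter of 5 CPM, which leaves out sod-3, sod-4 and sod-5, it was 2.

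Of the 71 genes in the further lists, 7 rose and 8 fell with the filter of 5 CPM, where fewer genes are tested, 3 rose without mutant libraries 22 and 29, and 7 fell without wildtype libraries 11 and 22. With single libraries left out 7 to 18 rose and 12 to 25 fell. Over all tested genes 748 rose with upper quartile scaling, 536 rose and 1679 fell with the filter of 5 CPM, 339 rose without mutant libraries 22 and 29, 1906 fell without wildtype libraries 11 and 22, and 1835 rose with DESeq2. With single libraries left out 589 to 2505 rose and 3058 to 4777 fell.

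Signs turned as follows. With DESeq2 size factors sod-1 was at 0.00212, sod-5 at 0.0511 and prdx-2 at 0.15, with total counts alone at 0.0949, 0.20 and 0.25, and with DESeq2 itself at 0.0394, 0.0765 and 0.19. With no filter beyond 1 count sod-5 was at 0.0467 and prdx-2 at 0.11, and with ribosomal RNA genes removed prdx-2 was at 0.0816. Without mutant libraries 22 and 29, sod-1 was at 0.0432, sod-5 at 0.43, prdx-2 at 0.11 and prdx-3 at 0.0225, and without wildtype libraries 11 and 22 sod-2 was at -0.0532. With single libraries left out the ranges were -0.43 to 0.48 for sod-1, -0.0477 to 1.74 for sod-2, -0.0552 to 1.21 for sod-3, -0.98 to 2.02 for sod-5, -0.65 to 0.00501 for ctl-3, -0.21 to 0.65 for prdx-2 and -0.88 to 0.42 for prdx-3. The cause of these changes was not tested.

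Same-numbered libraries did not deviate together in all pairs (correlations of -0.197, 0.0680 and 0.456 for numbers 11, 22 and 30). The labels do not say that a number marks a shared batch, so the numbers were not taken as pairs. The correlation for number 30 was the highest of any mutant and wildtype pair, and whether these libraries shared a batch was not tested. With the number as a replicate block over the 6 libraries whose number both groups hold, 1 enzyme gene was lower and 0 higher, sod-5 was at 0.43 and prdx-2 at 0.13. In this block fit sod-2 was at 0.92 (SE 0.30, edgeR adjusted p = 0.0517). The sod-4 call was lost there, at -1.60 (edgeR adjusted p = 0.131). Counts of 9 to 148 for sod-3, sod-4 and sod-5 limit their precision, and such values cover counting error and the spread between libraries only.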
